A study of Mus musculus with 17 samples.

Results

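RNA of 50-150 nt that came down with an antibody to MAEL from mouse testis was compared with longer and with shorter RNA from anti-MAEL precipitates. The set was chosen by size selection in the sample labels and holds 4 of the 17 libraries of the series: 1 library of 50-150 nt, 1 of 15-50 nt and 2 of long RNA, called a and b as in the labels. All came from wild-type testis of the 129SvJae strain, and an IgG precipitate of long RNA from the same strain was the only control. No IgG precipitate of either selected size was analysed here. Wild-type and Mael-/- small RNA of 15-50 nt, with 2 libraries of each genotype and no precipitation, is given beside some loci. The labels do not say whether libraries came from separate animals or how many animals were pooled.

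MAEL (Maelstrom) is a germ cell protein of the cytoplasmic granules where piRNA precursors meet the processing machinery. piRNAs, the guides that PIWI proteins carry to transposon RNA, are cut from long single-stranded transcripts of dedicated loci. In the tables, 100 loci are named by chromosome band (3-qA2-617 lies in band qA2 of chromosome 3) and 114 by a gene (pi-Fth1). As background, band-named loci are mostly intergenic clusters active in meiotic cells, and gene-named loci mostly overlap the ends of protein-coding transcripts. RNA of 50-150 nt is the size range of many structured noncoding RNAs, and it lies between the length of a piRNA and that of an intact precursor.

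The values are counts of reads per feature over 37991 transcripts, 214 piRNA loci and 2 entries named by GenBank records. The library of 50-150 nt held 68922841 counts, that of 15-50 nt 172732396, long a 5747156, long b 10862888 and IgG 7785524. Levels are given as CPM, counts scaled to library totals. With 1 library of 50-150 nt no test was possible, so a feature was called higher or lower only where CPM differed at least 4-fold, for long RNA against each of the 2 libraries. Exact binomial intervals at 95% confidence cover counting error only. Size is not the only difference between fractions: per the labels' protocols, long RNA was fragmented, primed at random and sequenced without strand, whereas both selected sizes were ligated to adapters with strand kept. Size, fragmentation and kit cannot be told apart in any ratio to long RNA. The transcript IDs matched no gene name in the reference tables used here, so transcripts are described by length and markers of testis cell types could not be checked.

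Short annotated transcripts made up most of the 50-150 nt library. Transcripts of up to 150 nt took 65.6% of its counts (exact interval 65.6% to 65.7%). They took 17.8% in long a, 9.57% in long b, 10.4% in IgG and 7.33% at 15-50 nt. The library of 50-150 nt thus stood above all other precipitates, and the long mean was 13.7% ± 5.85 (SD, n = 2). Coding transcripts over 150 nt went the other way, with 9.63% of counts at 50-150 nt, 51.3% and 60.5% in long a and b, 62.1% in IgG and 32.3% at 15-50 nt. Noncoding transcripts over 150 nt took 16.6% at 50-150 nt, 23.2% ± 0.219 (SD, n = 2) in long RNA and 31.6% at 15-50 nt.

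**Figure D1:**
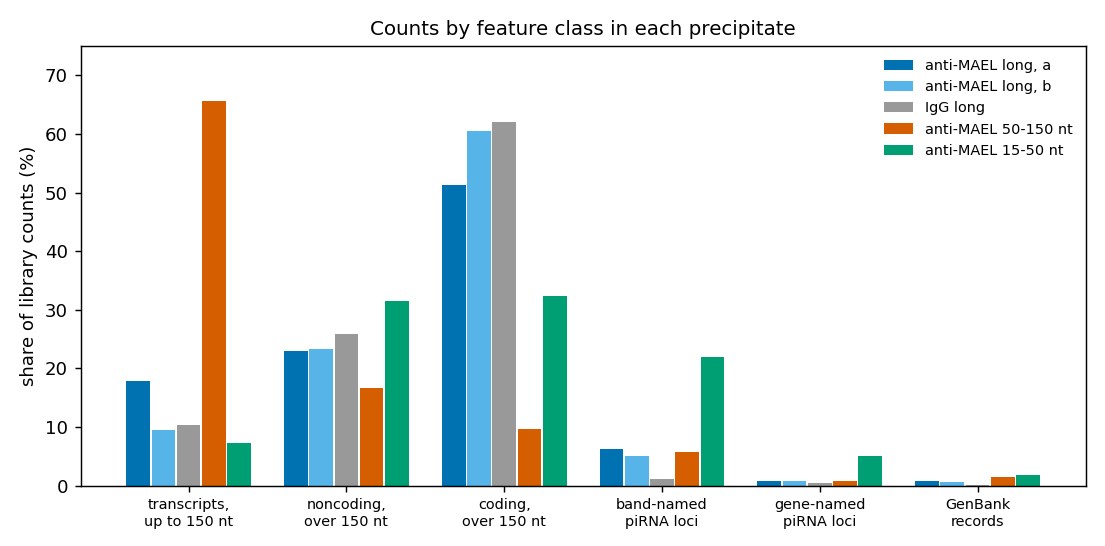
Share of each library's counts (%, y axis) by class of feature (x axis) in the 5 precipitates, 1 bar per library. Transcripts of up to 150 nt take 65.6% of counts at 50-150 nt and at most 17.8% in any other precipitate, and band-named piRNA loci take 5.72% at 50-150 nt against 21.9% at 15-50 nt.

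The size of this share depended on how near-identical transcripts were counted. Several transcripts of one length carried nearly the same count, and no source used here states how reads with several matches were treated. With transcripts of one length within 10% of each other in all 5 precipitates counted once, the share was 50.3%. With agreement asked only of the 2 size-selected libraries it was 35.4%, against 2.55% at 15-50 nt and 10.1% and 6.51% in long a and b counted the same way. Both ways of counting were chosen after the data had been seen.

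By length, with every transcript counted, counts peaked sharply. Transcripts of 111 to 120 nt took 55.6% of the 50-150 nt library, against 9.96% and 3.87% of long a and b, 4.05% of IgG and 1.07% at 15-50 nt. The next shares at 50-150 nt were 5.44% for 191 to 200 nt and 4.84% for 101 to 110 nt. Transcripts of 61 to 70 nt took 1.31%, and those of 121 to 130 nt 0.520%. At 15-50 nt it was the bin of 121 to 130 nt that led among short transcripts, with 5.46%. Each length is that of the annotated transcript, and the tables do not give the length of the reads. The bins of length, here and in later counts, and the level of 5000 CPM used next were set after the data had been seen.

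**Figure D2:**
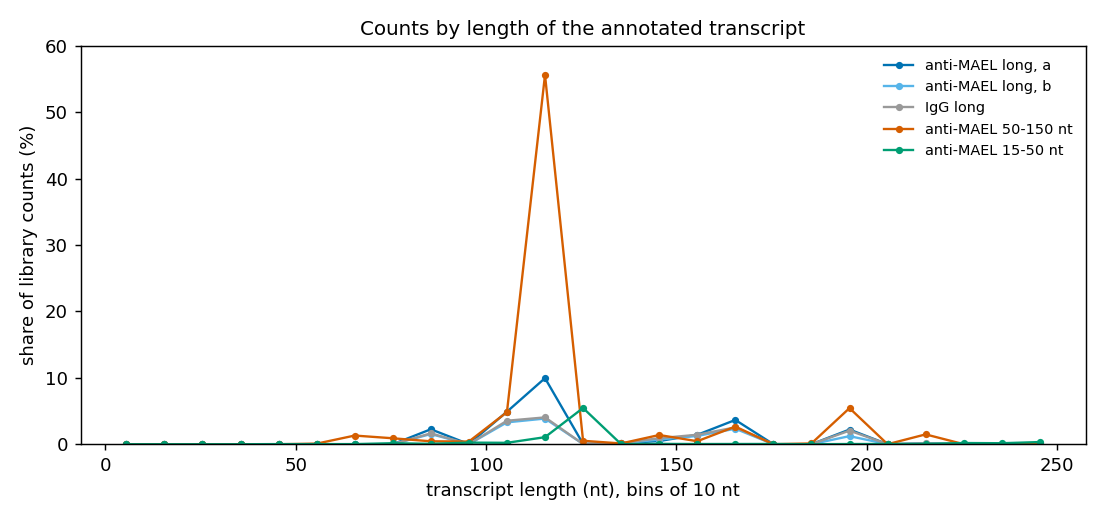
Share of each library's counts (%, y axis) at transcripts grouped by annotated length in bins of 10 nt (x axis, up to 250 nt), 1 line per precipitate. The 50-150 nt library peaks at 55.6% for 111 to 120 nt, where the other precipitates lie between 1.07% and 9.96%, and the 15-50 nt library has its own peak of 5.46% at 121 to 130 nt.

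A pair of transcript lengths carried this peak. The first was 119 nt, with 36.0% of counts at 50-150 nt over 120 transcripts. Of these, 40 lay above 5000 CPM each, from 5446 to 8209 CPM, and together held 31.4% of the library. The same 40 held 9.03% and 3.52% of long a and b, 3.69% of IgG and 0.442% at 15-50 nt, so IgG lay between the long anti-MAEL libraries. Within these 40, 32 agreed within 10% in all 5 precipitates. The median member had 8208 CPM at 50-150 nt, 2434 and 964 CPM in long a and b, 1011 CPM in IgG and 113 CPM at 15-50 nt.

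The second was 116 nt, with 18.8% of counts. It came almost wholly from 7 transcripts at 25614 to 27446 CPM, which had 0.174 to 3.87 CPM in long a and b, 0.514 to 4.50 CPM in IgG and 601 to 616 CPM at 15-50 nt. Unlike the 119-nt set, the 116-nt set was thus nearly missing from every long library. One coding transcript of 1316 nt went with it, at 28902 CPM, 1.57 and 1.47 CPM in long a and b, 1.93 CPM in IgG and 638 CPM at 15-50 nt. It was the feature with most counts in the 50-150 nt library, and its level ran beside that of the 116-nt transcripts in all 5 precipitates. Whether it shares reads with them was not tested. The 7 leading transcripts of 116 nt were nearly equal in both size-selected libraries, and whether they share reads with each other was not tested either. With sets near-equal in all 5 precipitates counted once, 39 of 40 transcripts of 116 nt were still counted.

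Counts past the 4-fold threshold followed class and length. Of the 15627 features that averaged 1 CPM or more over the 3 sizes, 1467 were higher at 50-150 nt than in each long library, a background of 9.39%, and 7766 were lower, a background of 49.7%. Among transcripts of up to 150 nt, 710 of 1049 were higher and 9 lower, with a median log2 difference of 3.48, beside a median of -2.38 over all features. Of these 710, 306 had 0 counts in both long libraries and so passed the minimum only through the size-selected libraries. Without a minimum the median of short transcripts was 0, so these counts describe the transcripts that passed and not all short ones. For coding transcripts over 150 nt the counts were 308 higher and 5931 lower of 10047, with a median of -2.77. Noncoding transcripts over 150 nt gave 441 higher and 1751 lower of 4316, with a median of -1.77. Scaling moved this split: with totals that leave out transcripts of up to 150 nt, 2605 were higher and 5413 lower than long RNA, and with median-of-ratios size factors 3775 and 1217. By comparison, 95 of the 15627 features differed at least 4-fold between long a and long b.

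Among short transcripts that passed the minimum of 1 CPM, the excess over long RNA was uneven along their length. At 101 to 110 nt, 298 of 321 were at least 4-fold higher, with a median log2 difference of 4.75. At 61 to 80 nt 118 of 198 were higher, with a median of 3.57, and at 111 to 120 nt 78 of 131, with a median of 3.05. At 121 to 150 nt 141 of 185 were higher, with a median of 3.14. At 81 to 100 nt only 71 of 195 were higher, and the median was 0.74. At 50 to 60 nt 4 of 16 were higher and 4 lower. Many short transcripts had no count in long RNA at all: 445 of the 1049 had 0 counts in both long a and long b, and 416 of these had 0 in IgG too. Of those 445, 157 reached 10 CPM at 50-150 nt. Transcripts with 0 in both long libraries were 152 of 198 at 61 to 80 nt and 121 of 195 at 81 to 100 nt. They were 121 of 321 at 101 to 110 nt and 20 of 131 at 111 to 120 nt. At 121 to 150 nt they were 22 of 185. These passed the minimum only through the size-selected libraries, so the counts and medians by length describe the transcripts that passed. A count of 0 allows up to 0.522 CPM in long a and 0.276 CPM in long b, from a floor of 3 counts in each library.

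The transcripts farthest above long RNA belonged to the 116-nt set, whose members were not tested for shared reads. ENSMUST00000093725 had 25759 CPM at 50-150 nt, with 1 count in long a and 8 in long b, a ratio of pooled counts of 47541 (exact interval 25044 to 103968). ENSMUST00000082947 had 25614 CPM, with 4 and 3 counts in long a and b, a ratio of 60778 (29498 to 151170). In the other direction, ENSMUST00000121415, of 102 nt, had 25.1 CPM at 50-150 nt although its annotated length lies in that window, against 44171 and 31105 CPM in long a and b, 33484 CPM in IgG and 3.79 CPM at 15-50 nt. ENSMUST00000142524, of 938 nt, had 0.276 CPM at 50-150 nt against 750 and 1110 CPM in long a and b and 1213 CPM in IgG. In both of the latter IgG lay at the level of the anti-MAEL libraries. A coding transcript of 3881 nt took the most counts of long RNA, 276519 and 242554 CPM in a and b and 258165 CPM in IgG, and had 794 CPM at 50-150 nt.

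Only 9 short transcripts were at least 4-fold lower than in each long library, and they ran from 56 to 143 nt. After the 102-nt transcript the most abundant, of 82 nt, had 224 CPM at 50-150 nt against 21624 and 14631 CPM in long a and b and 15359 CPM in IgG. None of the other 7 passed 126 CPM in either long library, and the IgG level of each of the 9 lay inside or just outside the range of long a and b. These 9 were singled out after their values were seen.

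Against 15-50 nt the short transcripts split in 2 directions. Over all features, 2154 of 15627 were at least 4-fold higher at 50-150 nt than at 15-50 nt, a background of 13.8%, and 4042 were lower, a background of 25.9%. Of the 1049 short transcripts, 572 were higher and 348 lower, with a median log2 difference of 2.87 beside 0.06 over all features. Totals without transcripts of up to 150 nt gave 5106 higher and 2841 lower features, and median-of-ratios size factors gave 3108 and 5509. At 111 to 120 nt 116 of 131 were higher and 9 lower. At 121 to 150 nt 65 of 185 were higher and 114 lower, and at 81 to 100 nt 74 of 195 were higher and 104 lower. Lengths of 121 nt gave 51 of the 348 lower transcripts and 126 nt gave 28. Near-identical copies enter these counts, and a set of 16 transcripts of 121 nt had the same level within 10%, 36.4 CPM at 50-150 nt and 854 CPM at 15-50 nt in its leading member.

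The highest ratios over 15-50 nt belonged to a pair of 62-nt transcripts. The first had 4379 CPM at 50-150 nt, 1.77 CPM at 15-50 nt and 0 counts in both long libraries, so it was at least 8389-fold higher than long RNA by the larger of the 2 floors. The second had 1298 CPM against 0.544 CPM at 15-50 nt and 0 counts in all 3 long libraries, IgG included. The lowest ratios were at transcripts of 4698 nt, with 4.93 against 966 CPM, and of 2349 nt, with 3.02 against 535 CPM. Their long RNA levels were 2.26 to 3.87 CPM over a and b, and their IgG levels 3.08 and 3.34 CPM.

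In all, 592 features were higher at 50-150 nt than in both other sizes and 531 lower than in both. Short transcripts made up 483 of the 592 and 0 of the 531, beside 1049 of the 15627 features tested. Coding transcripts over 150 nt made up 41 of the 592 and 424 of the 531, beside 10047 of the 15627. Another 717 coding transcripts were lower than long RNA and higher than 15-50 nt, of 834 such features of any class. Across the 10047 coding transcripts, Spearman's rho of the 50-150 nt level was 0.42 with long a and 0.42 with long b, 0.38 with IgG and 0.32 with 15-50 nt, and that of long a with 15-50 nt was -0.17. These values describe transcripts of single libraries, and levels of all libraries share the length of the transcript.

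With every feature counted, piRNA loci held a share of the 50-150 nt library like that of long RNA and below that of 15-50 nt RNA. Band-named loci took 5.72% of counts at 50-150 nt (exact interval 5.71% to 5.72%), 6.20% and 5.09% in long a and b, 1.11% in IgG and 21.9% at 15-50 nt. Gene-named loci took 0.889% at 50-150 nt, 0.855% and 0.899% in long a and b, 0.540% in IgG and 5.07% at 15-50 nt. The 50-150 nt share of both classes therefore lay between the long libraries and not above them, and it was under the 15-50 nt share by more than counting error. The shares moved when transcripts of one length within 10% in all 5 precipitates were counted once. Band-named loci then took 9.71% at 50-150 nt, 7.26% and 5.56% in long a and b and 23.6% at 15-50 nt. Gene-named loci took 1.51%, 1.00% and 0.983%, and 5.44%, in the same order. Counted this way, both classes stood above both long libraries at 50-150 nt. Within loci alone, band-named loci held 86.5% of counts at 50-150 nt, 87.9% and 85.0% in long a and b and 81.2% at 15-50 nt.

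Counts at loci were gathered in fewer loci at 50-150 nt than in the other precipitates. The 10 loci with most counts in each library held 50.9% of all counts at loci at 50-150 nt, 37.6% and 32.2% in long a and b, 41.5% at 15-50 nt and 21.8% in IgG. The leader at 50-150 nt, 3-qA2-617, held 9.26% of counts at loci there, 2.63% and 2.24% in long a and b and 2.11% at 15-50 nt. On this scale, chosen after the data had been seen and not affected by the short transcripts, 14 of 100 band-named loci stood higher at 50-150 nt than in every other anti-MAEL library and 36 stood lower. By CPM of the library these counts were 3 and 59. Of 114 gene-named loci, 3 stood higher and 36 lower on the first scale, and 1 and 71 by CPM. These counts were not made over all features.

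3-qA2-617 had 6116 CPM at 50-150 nt (exact interval 6098 to 6135), 1854 and 1341 CPM in long a and b, 172 CPM in IgG and 5701 CPM at 15-50 nt. It was the only one of the 10 loci with most counts whose CPM at 50-150 nt was above every other precipitate, by a log2 difference of 0.10 from 15-50 nt that turned to -0.17 with median-of-ratios size factors. In total small RNA without precipitation it had 609 and 675 CPM in wild type and 4786 CPM in each Mael-/- library, so the genotypes did not overlap. Lack of overlap was common: both Mael-/- libraries lay above both wild-type libraries at 17 of 100 band-named loci and below both at 73. Gene-named loci went the other way, with 85 of 114 above both and 25 below both. No such count was made over all features. 13-qA5-208 had 5510 CPM at 50-150 nt, 3974 and 2836 CPM in long a and b, 291 CPM in IgG and 6265 CPM at 15-50 nt. Its log2 difference from 15-50 nt, -0.19 by library totals, turned to 1.25 with totals that leave out the short transcripts. Its total small RNA stood at 1755 and 1686 CPM in wild type and 12266 and 12000 CPM in Mael-/-. Both loci are long, at 69605 and 32293 nt, and relative to length the second had the higher level at 50-150 nt, 171 against 87.9 CPM per kb.

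pi-D10Wsu102e was the gene-named locus with most counts and the third of all loci by counts at 50-150 nt. It had 5079 CPM at 50-150 nt, 1859 and 1385 CPM in long a and b, 204 CPM in IgG and 18560 CPM at 15-50 nt, where it led all features. Its level at 50-150 nt was thus above the long and below the 15-50 nt libraries. It alone held 57.1% of the counts of gene-named loci at 50-150 nt, 21.7% and 15.4% in long a and b and 36.6% at 15-50 nt. The count of the class at 50-150 nt is therefore largely that of 1 locus.

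The pair of loci in band qC1 of chromosome 10 differed in how they compared with long RNA. 10-qC1-1527 had 4738 CPM at 50-150 nt against 3205 and 2219 CPM in long a and b, above both. 10-qC1-2617 had 3710 CPM against 4037 and 3095 CPM, between them. At 15-50 nt they had 10510 and 17054 CPM, above 50-150 nt in both cases by library totals, although for 10-qC1-1527 the log2 difference of -1.15 turned to 0.28 with totals that leave out the short transcripts. In IgG they had 175 and 198 CPM.

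Another 4 leading loci differed from long RNA by less than 2-fold and lay below 15-50 nt to different degrees. 17-qA3.3-26735, the locus with most counts in total small RNA of both genotypes, had 2394 CPM at 50-150 nt, 3882 and 2517 CPM in long a and b and 13148 CPM at 15-50 nt. By library totals it was below both long libraries, with a log2 difference of -0.42 that turned to 0.89 with totals that leave out transcripts of up to 150 nt and to 2.58 with median-of-ratios size factors. In wild-type small RNA it had 143562 and 127923 CPM. 6-qD1-2831 had 1663 CPM at 50-150 nt, 1911 and 1505 CPM in long a and b and 7540 CPM at 15-50 nt. 15-qD1-4001 had 1510 CPM at 50-150 nt, above 1081 and 969 CPM in long a and b, and 5949 CPM at 15-50 nt. 7-qD1-9417 had 1453 CPM at 50-150 nt, between 1629 and 1176 CPM in long a and b, and 2447 CPM at 15-50 nt. Its log2 difference from 15-50 nt was -0.75, and 0.68 with totals that leave out the short transcripts. In each of the 10 leading loci both long anti-MAEL libraries were over 2 times the IgG level, which was so for 69 of 100 band-named and 14 of 114 gene-named loci.

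**Figure D3:**
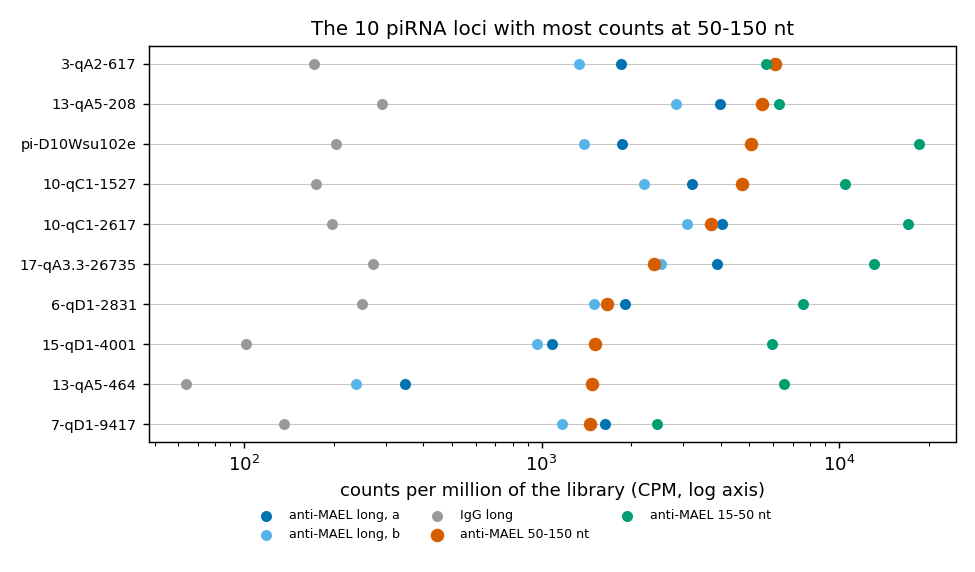
Depth-scaled counts (CPM, log x axis) at the 10 piRNA loci with most counts at 50-150 nt (y axis, most at the top), 1 point per precipitate. IgG lies lowest at every locus, the 15-50 nt library lies highest at all but 3-qA2-617, and 13-qA5-464 has 1478 CPM at 50-150 nt against 346 and 238 CPM in long a and b.

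Few loci passed 4-fold against long RNA in the higher direction. Of 100 band-named loci 4 were higher and 12 lower than each long library, with a median log2 difference of -0.66. Of the 113 gene-named loci that passed the minimum of 1 CPM, 4 were higher and 63 lower, with a median of -2.45. Read against the backgrounds of 9.39% and 49.7%, both classes had a smaller share of higher loci than all features. That background is raised by short transcripts, which gave 710 of the 1467 higher features. The share of higher features was 3.07% for coding and 10.2% for noncoding transcripts over 150 nt, and both classes of loci lay between these. The share of lower loci was 12% for band-named loci, under the background, and 55.8% for gene-named loci, near it. The sign of these medians is set by scaling: with library totals that leave out transcripts of up to 150 nt they were 0.66 and -1.42, beside a median over all features of -1.34, and with median-of-ratios size factors 2.37 and 0.33, beside 0.40. The median of band-named loci lay 1.79 above that of gene-named loci on the log2 scale, and from 1.35 to 2.09 above it under all alternatives tried.

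The highest ratio of any locus was at 1-qE2.3-2, the shortest locus, at 122 nt. It had 516 CPM at 50-150 nt, with 2 counts in each of long a and b, 0.128 CPM in IgG and 0.122 CPM at 15-50 nt. The ratio of pooled counts to long RNA was 2142 (exact interval 837 to 7864). In total small RNA it had 0.405 and 0.386 CPM in wild type and 1.01 and 0.414 CPM in Mael-/-, so reads in number were found in the 50-150 nt library and in no other library given here. Its level relative to length, 4229 CPM per kb at 50-150 nt, was the highest of all named loci.

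The other loci far above long RNA were higher still at 15-50 nt. 8-qA4-155 had 49.9 CPM at 50-150 nt, 4.35 and 3.77 CPM in long a and b, 2.57 CPM in IgG and 285 CPM at 15-50 nt. 7-qD2-40 had 68.4 CPM at 50-150 nt, 10.4 and 9.30 CPM in long a and b, 8.73 CPM in IgG and 1585 CPM at 15-50 nt. 13-qA5-464 had 1478 CPM at 50-150 nt, 346 and 238 CPM in long a and b, 63.8 CPM in IgG and 6529 CPM at 15-50 nt. Of these 3, only the last had long anti-MAEL levels over 2 times IgG.

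Among gene-named loci, pi-D730040F13Rik had 136 CPM at 50-150 nt, 19.3 and 23.5 CPM in long a and b and 1719 CPM at 15-50 nt. pi-Snx30, at a sorting nexin gene, had 8.82 CPM at 50-150 nt, with 2 and 12 counts in long a and b, a ratio of pooled counts of 10.5 (exact interval 6.19 to 19.3), and 388 CPM at 15-50 nt. Beyond the named 6, the same threshold was passed by pi-Zfp652, at a zinc finger gene, with 190 CPM against 40.0 and 46.4 CPM in long a and b, and by pi-Kcng3, at a potassium channel gene, with 44.9 CPM against 10.1 and 10.4 CPM. Both were singled out after their values were seen. All 4 gene-named loci and 3 of the 4 band-named loci that were higher than long RNA were also at least 4-fold lower than 15-50 nt RNA, and 1-qE2.3-2 was the exception. Over all features this was so for 567 of the 1467 that were higher than each long library.

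The loci farthest below long RNA were gene-named and stood near IgG in long RNA. pi-Hist1h1a, at a linker histone gene, had 1.76 CPM at 50-150 nt, 130 and 137 CPM in long a and b, 128 CPM in IgG and 0.255 CPM at 15-50 nt. pi-Mgll, at the monoacylglycerol lipase gene, had 2.09 CPM at 50-150 nt, 87.3 and 137 CPM in long a and b and 123 CPM in IgG. pi-Pou6f1, at a POU transcription factor gene, had 2.39 CPM at 50-150 nt, 112 and 138 CPM in long a and b and 97.9 CPM in IgG. The log2 difference from the long mean was -5.89, -5.44 and -5.44.

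pi-Hif1an, at the gene of a hydroxylase of hypoxia-inducible factor, had 1.10 CPM at 50-150 nt, 42.3 and 55.3 CPM in long a and b and 49.5 CPM in IgG. pi-Socs7, at a suppressor of cytokine signalling gene, had 3.67 CPM at 50-150 nt, 120 and 197 CPM in long a and b, 233 CPM in IgG and 56.2 CPM at 15-50 nt. pi-Uhrf1bp1 had 0.261 CPM at 50-150 nt from 18 counts, 20.4 and 24.1 CPM in long a and b and 31.7 CPM in IgG. None of these 6 loci had long anti-MAEL levels over 2 times IgG. Fewer RNA molecules bound to MAEL and less RNA of this size in the testis cannot be told apart here, since no input of 50-150 nt was analysed.

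Against 15-50 nt most loci stood lower at 50-150 nt. Of band-named loci 2 were at least 4-fold higher and 53 lower, with a median log2 difference of -2.13, and of gene-named loci 5 were higher and 48 lower, with a median of -1.61. The shares of lower loci, 53% and 42.5%, were above the background of 25.9%, and the shares of higher loci, 2% and 4.42%, were under 13.8%. Both medians stayed below 0 under each scaling tried, at -0.70 and -0.35 with totals that leave out the short transcripts, beside a median over all features of 0.88, and at -2.40 and -1.93 with median-of-ratios size factors, beside -0.35. In all, 14 of 113 gene-named and 2 of 100 band-named loci were at least 4-fold lower at 50-150 nt than in both other sizes. Over all features these were 531 of 15627.

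The loci farthest below 15-50 nt were all gene-named. pi-Ing5, at a gene of the inhibitor of growth family, had 3.22 CPM at 50-150 nt, 242 CPM at 15-50 nt and 20.7 and 25.3 CPM in long a and b, with the lowest level at 50-150 nt by library totals but a log2 difference to long RNA of 0.24 with median-of-ratios size factors. pi-Il17rd, at an interleukin-17 receptor gene, had 3.64 CPM at 50-150 nt, 251 CPM at 15-50 nt and 3.83 and 7.36 CPM in long a and b. pi-Cbfa2t2, at a transcriptional corepressor gene, had 14.6 CPM at 50-150 nt, 743 CPM at 15-50 nt and 23.0 and 36.1 CPM in long a and b. With median-of-ratios size factors the log2 differences of the latter pair to long RNA turned from -0.56 and -0.996 to 2.24 and 2.05. For these 3 the ratio of 15-50 nt to 50-150 nt was between 49.4 and 65.3 on the scale with 0.5 CPM added.

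pi-Zmat3 had 9.84 CPM at 50-150 nt, 460 CPM at 15-50 nt and 28.0 and 26.9 CPM in long a and b. pi-Cramp1l had 16.0 CPM at 50-150 nt, 671 CPM at 15-50 nt and 36.9 and 51.8 CPM in long a and b. Both were below long RNA as well by library totals, by less than 4-fold, but with median-of-ratios size factors the log2 differences of -1.43 and -1.44 turned to 1.52 and 1.60. In total small RNA pi-Zmat3 had 39.2 and 37.6 CPM in wild type and 36.8 and 33.7 CPM in Mael-/-, and pi-Cramp1l 25.1 and 18.4 CPM in wild type and 42.4 and 59.0 CPM in Mael-/-. All 4 of these values for each locus were under its 15-50 nt anti-MAEL level.

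Of the loci at least 4-fold above 15-50 nt RNA, 4 of the 5 named beside 1-qE2.3-2 had under 3 CPM at 15-50 nt. pi-Rplp1, at a ribosomal protein gene, had 7.39 CPM at 50-150 nt, 0.162 CPM at 15-50 nt and 42.1 and 86.6 CPM in long a and b. pi-Fth1, at the ferritin heavy chain gene, had 5.96 CPM at 50-150 nt, 0.562 CPM at 15-50 nt and 86.1 and 103 CPM in long a and b. pi-Tktl2, at a transketolase-like gene, had 14.8 CPM at 50-150 nt, 2.17 CPM at 15-50 nt and 53.8 and 78.2 CPM in long a and b. By library totals these 3 were above 15-50 nt and below long RNA, though with median-of-ratios size factors the log2 difference to long RNA was 0.039 for pi-Rplp1 and 0.94 for pi-Tktl2. Their IgG levels of 77.2, 95.6 and 70.8 CPM were within the range of the long anti-MAEL libraries.

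pi-Tet3, at the gene of a methylcytosine dioxygenase, had 14.9 CPM at 50-150 nt, 1.54 CPM at 15-50 nt, 6.44 and 8.75 CPM in long a and b and 10.4 CPM in IgG, so it was highest at 50-150 nt. 4-qB3-3994 was the band-named locus here, with 317 CPM at 50-150 nt, 276 and 380 CPM in long a and b, 149 CPM in IgG and 48.0 CPM at 15-50 nt. In total small RNA it had 985 and 1022 CPM in wild type and 391 and 294 CPM in Mael-/-, so the values did not overlap and were lower in Mael-/-. The same held for 73 of 100 band-named and 25 of 114 gene-named loci, and was not counted over all features. The genotype values are CPM of library totals set side by side, without a test.

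**Figure D4:**
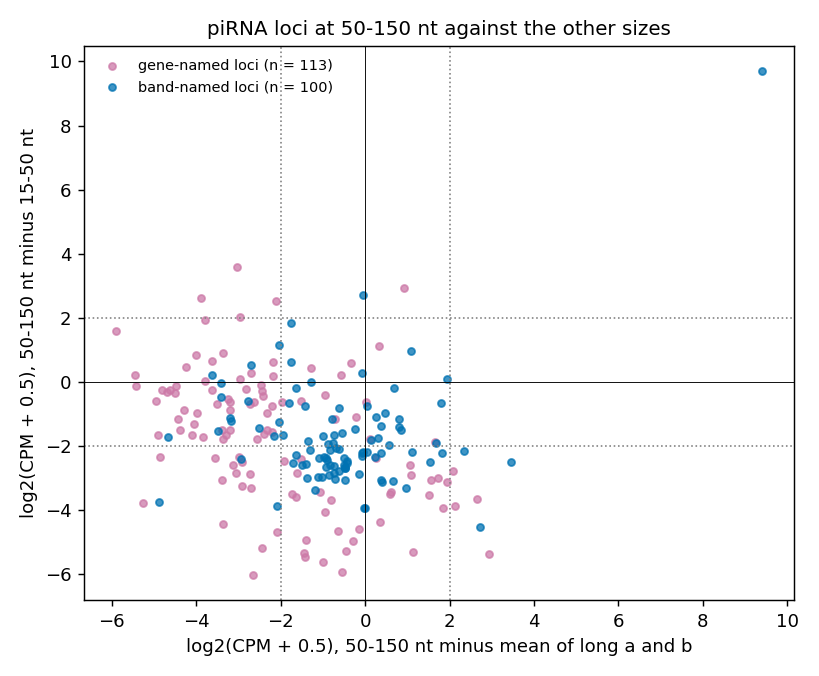
Difference in log2(CPM + 0.5) of 50-150 nt to the mean of long a and b (x axis) and to 15-50 nt (y axis), 1 point per piRNA locus, with dotted lines at the 4-fold threshold. With library totals most loci lie at or below 0 on both axes. On the x axis this does not hold for band-named loci with the other scalings, nor for gene-named loci with median-of-ratios size factors. Gene-named loci reach farther left than band-named loci, and the point at the upper right is 1-qE2.3-2.

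The order of loci at 50-150 nt followed that of both other sizes. Across the 100 band-named loci, Spearman's rho of the 50-150 nt level was 0.89 with 15-50 nt, 0.85 and 0.82 with long a and b and 0.53 with IgG. It was 0.56 with each wild-type small RNA library and 0.70 and 0.71 with the Mael-/- libraries. Across the 114 gene-named loci it was 0.74 with 15-50 nt, 0.58 and 0.54 with long a and b and 0.33 with IgG. With total small RNA it was 0.61 for each wild-type library and 0.36 and 0.30 for the Mael-/- libraries, the opposite order of genotypes. For these loci long a and 15-50 nt had a rho of 0.23, against 0.82 for band-named loci. These are descriptions over loci of single libraries, which share locus length and, for some loci, sequence.

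Ratios also varied with locus length. In the 50 band-named loci longer than 14699 nt the median log2 difference was -0.32 to long RNA and -2.25 to 15-50 nt, and in the other 50 it was -1.31 and -1.66. In the 56 gene-named loci longer than 7407 nt it was -1.34 to long RNA and -2.43 to 15-50 nt, and in the other 57 it was -3.20 and -0.88. So in both classes, by library totals, longer loci had a higher ratio to long RNA and a lower ratio to 15-50 nt RNA. For band-named loci the ratio to long RNA had a Spearman's rho of 0.39 with length, but a Pearson correlation of 0.035 with log2 length. For gene-named loci these were 0.48 and 0.42. The split by length was chosen after the data had been seen.

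Many loci have several entries of different length in the tables, and the entries differed in how the sizes fell on them. The shortest and longest entry were compared at 79 loci whose shortest entry was at most 70% of the longest and whose longest had at least 100 counts in every anti-MAEL library. The shortest entry held a median of 38.8% and 37.5% of the longest entry's counts in long a and b, 47.3% in IgG, 11.8% at 50-150 nt and 6.46% at 15-50 nt. At 68 of the 79 loci the 50-150 nt value was under both long libraries. The 2 classes differed at 15-50 nt: band-named loci had 13.0% at 50-150 nt and 17.3% at 15-50 nt, and gene-named loci 11.7% and 3.86%. No source used here states what sets the entries of a locus apart.

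pi-Nsd1, at a histone methyltransferase gene, went against this order. Its entry of 871 nt held 136% of the counts of its entry of 12778 nt at 50-150 nt and 4127% at 15-50 nt, but 9.93% and 7.84% in long a and b. At pi-1700016M24Rik the shorter entry held 248% and 273% in long a and b, 17.7% at 50-150 nt and 1.91% at 15-50 nt. The shorter entry can thus hold more counts than the longer one. Whether the entries of a locus are nested was not tested. These loci were singled out after their values were seen.

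**Figure D5:**
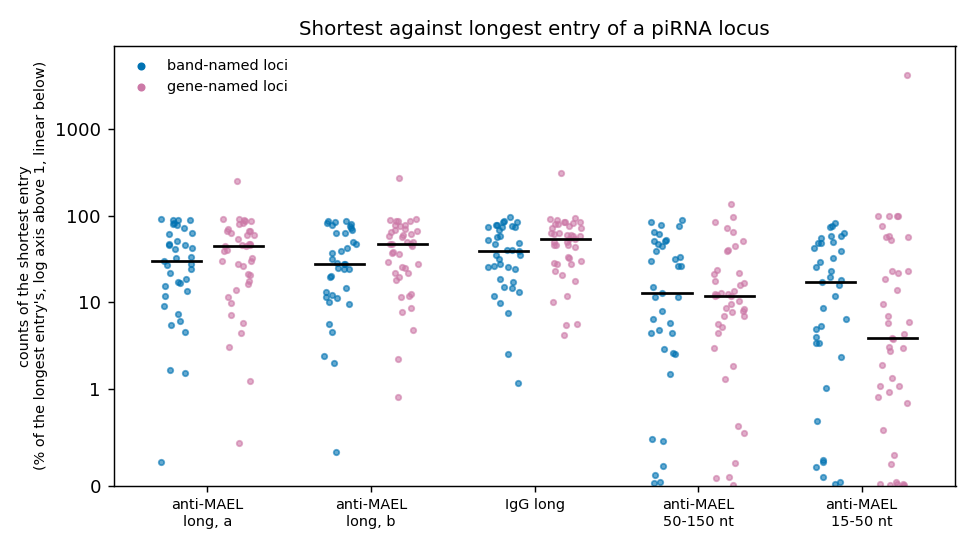
Counts of the shortest entry of a piRNA locus as a percentage of the longest entry's (y axis, log above 1 and linear below) in each precipitate (x axis), 1 point per locus for 37 band-named and 42 gene-named loci, with black lines at the medians. The medians at 50-150 nt, 13.0% and 11.7%, lie below the 27.7% to 47.6% of long a and b.

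Both entries named by GenBank records were higher at 50-150 nt than in long RNA. The entry of record MUSRSLIMA, 7713 nt long, had 12609 CPM at 50-150 nt, 6430 and 4730 CPM in long a and b, 626 CPM in IgG and 7776 CPM at 15-50 nt. It was the ninth feature by counts at 50-150 nt, and its level there was above that of every other precipitate. Its long anti-MAEL levels were above IgG, and the selected sizes had no IgG precipitate here. The other, of 5213 nt, had 2270 CPM at 50-150 nt, 1311 and 1040 CPM in long a and b, 136 CPM in IgG and 10242 CPM at 15-50 nt. It was above long RNA and below 15-50 nt RNA, and neither passed 4-fold against long RNA.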

How the data were processed

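Anti-MAEL and IgG precipitates of wild-type mouse testis were sequenced as long RNA or after size selection. The deposited tables hold, per the file headers, a count of reads per feature, which the authors did not normalize. Build mm9, TopHat2 2.0.7, Bowtie2 2.0.6 and CASAVA 1.8 appear in the submitters' processing notes, without roles. No source used here states how reads with several matches were counted. A transcript was called coding where the deposited wild-type mRNA table, in another unit, lists a coding size for it.

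Of 465 entries at 214 piRNA loci, the entry with most counts over the 4 anti-MAEL libraries stood for its locus. Counts were scaled to CPM by library totals, features averaging 1 CPM or more over the 3 sizes were kept (long a and b averaged), and ratios were taken on log2(CPM + 0.5), which understates changes of low features. With 1 library of 50-150 nt there was no test: higher and lower mean past 4-fold. The SD is over the 2 long libraries, and their spread may be technical. Named loci were the 10 with most counts at 50-150 nt and, with a mean of at least 5 CPM, the 6 highest and 6 lowest ratios to each other size. For transcripts, 2 in each direction were taken. The comparison, the lists and the rules were chosen with earlier results of these data known. Alternatives covered scaling, the pseudocount, the filter, duplicate features, the entries of a locus and each long library left out. Python 3.11.15, numpy 2.4.6, pandas 2.3.3, scipy 1.17.1 and matplotlib 3.10.9 were used.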

Additional observations from a re-analysis of the deposited data

How the results depend on the processing

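Ratios to long RNA rest on the scaling, because short transcripts fill most of the 50-150 nt library; no input or IgG precipitate of that size and no second library of it bears on them. No paired analysis was possible because the 50-150 nt fraction has 1 library and no test was made. With median-of-ratios size factors, 3775 features were higher and 1217 lower than long RNA. The median log2 differences to long RNA turned positive for band-named loci (2.37), gene-named loci (0.33) and noncoding transcripts over 150 nt (0.94), as did, among named features past 4-fold, those of pi-Ing5 (0.24), pi-Rplp1 (0.039) and pi-Tktl2 (0.94), while that of coding transcripts to 15-50 nt turned to -0.13. With totals that leave out transcripts of up to 150 nt, 2605 features were higher than long RNA and 5106 higher than 15-50 nt, and the medians of band-named loci to long RNA (0.66) and of noncoding transcripts to 15-50 nt (0.48) turned positive. With a pseudocount of 0.1 CPM 3551 features were higher than 15-50 nt. With 2 CPM 1000 were, 4704 were lower than long RNA, and band-named loci lay 1.35 above gene-named loci in their ratio to long RNA. A minimum mean of 10 CPM left 2733 features lower than long RNA, 1360 higher and 2206 lower than 15-50 nt, and a noncoding median of 0.65 to long RNA. Fewer features were tested there. Without a filter the medians of short transcripts were 0 to both sizes and that of coding transcripts to 15-50 nt was -0.11.

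The share of 50-150 nt counts at transcripts of up to 150 nt was 67.6% with equal counts kept once, 63.0% with the entries of a locus summed, 50.3% with near-equal sets kept once and 35.4% with sets near-equal in the size-selected libraries kept once. Tolerances of 2% and 25% for near-equal sets gave 52.9% and 50.2%. With the first and second kind of near-equal sets kept once, noncoding medians to 15-50 nt were 0.052 and 0.24, and with the second the band-named median to long RNA was 0.35 and 3833 features were higher than 15-50 nt. The median of band-named loci to 15-50 nt stayed below that of gene-named loci in every alternative, by a difference of -0.51 as reported, -0.48 with median-of-ratios factors, -0.35 without short transcripts in the totals, -0.35 and -0.996 with 0.1 and 2 CPM, -0.54 without a filter, -0.035 at 10 CPM, -0.49 with equal counts once, -0.35 with entries summed, and -0.45 and -0.37 with the 2 kinds of near-equal sets once. With entries summed, Spearman's rho with 50-150 nt was 0.90 for 15-50 nt and 0.85 for long RNA over band-named loci, and 0.61 for long RNA over gene-named loci. Comparing entries at the 91 loci with 100 counts at 50-150 nt alone gave 41.3% and 42.3% in long a and b, 11.6% at 50-150 nt and 5.98% at 15-50 nt. Of 540 recomputed ratios of named features past 4-fold, 537 kept their sign and 507 stayed past 4-fold. The near-equal sets and the comparison of entries were added after seeing the data. Over named features of any size of ratio, the sign to long RNA turned for 11 of 41 with median-of-ratios factors, 6 of 41 with totals that leave out short transcripts, and 4 of 41 and 6 of 39 with the 2 kinds of near-equal sets once. The sign to 15-50 nt turned for 2 of 41, 5 of 41, 2 of 41 and 4 of 39. Summing entries turned 1 of 41 to each size, leaving out long a 1 and long b 3 of 41 to long RNA, and other alternatives 0. Long a holds the fewest counts of the precipitates, and a count of 0 there allows 0.522 CPM. Why these values moved was not tested apart from what each alternative changes by construction.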
